A study of Glycine max with 54 samples.

Results

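Leaves of the antixenotic soybean genotype P203 were compared with leaves of the susceptible cultivar Dongnong47 in mock-treated seedlings at 48 h after incubation (HAI). The comparison used 6 of the 54 libraries of the series, 3 of each genotype, chosen by their labels. Every seedling of both groups carried an empty cage on the leaflets of its first trifoliolate leaf and received no aphids, and the caged leaf area was harvested. Infested seedlings of the same genotypes, used further down, carried 6 caged soybean aphids per leaflet. No transgene or chemical was applied to any group, and P203 is the line of Rag_P203, a mapped resistance gene of the antixenotic type, which both P203 groups share. Leaf identity of the libraries was not checked, since the identifiers carry no gene symbols. Genes on chromosomes 1 to 13 were tested, because part of the genes on chromosomes 14 to 20 had no value in some libraries. On chromosome 18, for example, 1435 to 1953 genes per library had a value, whereas on chromosome 12 the range over the 6 libraries was 1562 to 1678. Of 32958 genes of chromosomes 1 to 13 in the series, 29745 had a value in at least 1 of the 6 libraries, and 22144 passed the filter on low counts.

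Antixenosis is the form of resistance in which insects avoid settling or feeding on a plant, whereas a susceptible plant is colonized freely. Leaf defense against sap-feeding insects runs largely through jasmonic acid (JA), made from membrane fatty acids by lipoxygenases and held in check by JAZ repressors, and through salicylic acid (SA), made by the isochorismate or the phenylalanine pathway and read out through NPR1. WRKY transcription factors (TFs) are common regulators of both. A comparison of mock leaves shows how the genotypes differ without aphids, so that no response to feeding is included.

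Estimated counts summed to 17405712 to 21487630 per library, of which 13710864 to 16960509 fell on chromosomes 1 to 13. Libraries carried the genotype of their labels: of 80 genes that set the genotypes apart in mock leaves at 24 HAI, 70 to 76 were Dongnong47-like in the Dongnong47 libraries and 3 to 8 in the P203 libraries. In expression, however, P203 replicate 3 stood apart from the other P203 libraries. Pearson's r of log2 CPM (counts scaled to a common library size) was 0.945 between P203 replicates 1 and 2, but 0.775 and 0.841 between each of these and replicate 3. P203 replicate 3 was closer to the Dongnong47 libraries, with r of 0.842 to 0.910, than P203 replicates 1 and 2 were, with r of 0.702 to 0.827. Yet P203 replicate 3 was also the library with the fewest Dongnong47-like genes, 3 of 80. For most counts and most described genes that missed the threshold, values without this library are therefore also given.

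**Figure D1:**
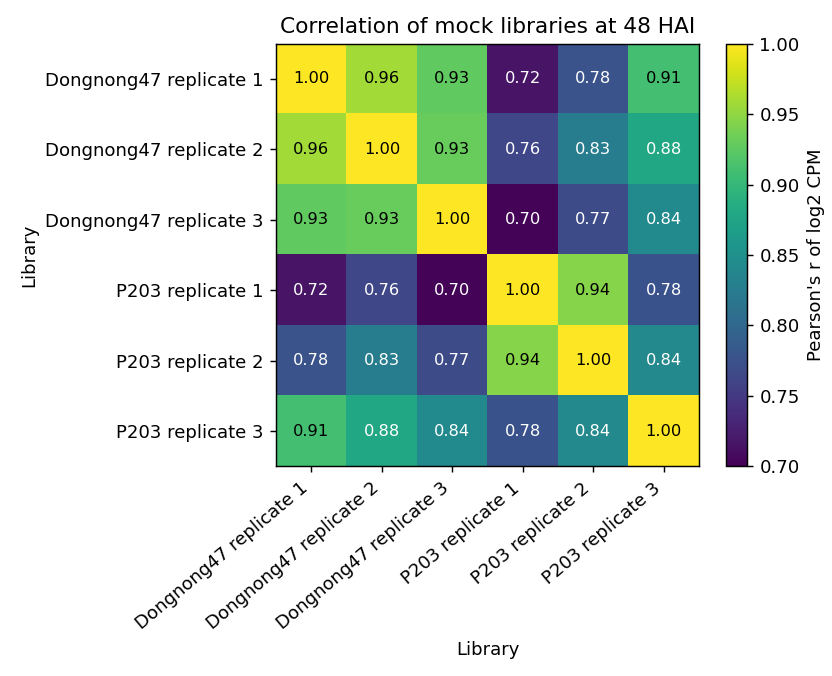
Pearson's r of log2 CPM between the 6 mock libraries at 48 HAI, with libraries on both axes and r as colour and number. Dongnong47 libraries form a block of 0.93 to 0.96, P203 replicates 1 and 2 form a pair, and P203 replicate 3 lies nearer to Dongnong47 replicate 1 than to either of them.

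In all, 321 of 22144 genes (1.45%) differed between P203 and Dongnong47 by the criteria of the study (adjusted p under 0.05, log2 fold change (FC) of at least 1 in size). P203 was higher in 150 (0.677%) and lower in 171 (0.772%). The lowest adjusted p was 0.00347, and 5411 genes had an unadjusted p under 0.05. In each of the 321 genes the 3 P203 libraries lay outside the range of the 3 Dongnong47 libraries, whereas this held for 30.7% of all tested genes. Calls and ranges come from the same 6 libraries, so the separation of called genes follows largely from the call and adds no support to it. Differences were large, with a median absolute log2 FC of 3.87 and 149 genes at 4 or more, where genes at 0 in a genotype were set to the smallest difference their counts allow. Low expression in one genotype was common: in 141 of the 321 genes, every library of one genotype was under 1 CPM. The 46.7% of calls that were higher in P203 became 63.8% when libraries were scaled by their total counts, a scaling that moved the median log2 FC of all tested genes from 0.0094 to 0.48.

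Without P203 replicate 3, the count of called genes was 5613 of 22948 (24.5%), of which 2747 (12%) were higher in P203 and 2866 (12.5%) lower, and these included all 321 genes. The other libraries moved the count as well, to 27, 22 and 36 without Dongnong47 replicates 1, 2 and 3, and to 81 and 12 without P203 replicates 1 and 2. Among the 5613 genes, P203 replicate 3 lay past all Dongnong47 libraries on the side of the other P203 libraries in 3355 (59.8%). It lay within the Dongnong47 range in 1696 (30.2%) and past it on the opposite side in 562 (10.01%). At the median gene, P203 replicate 3 showed 27.3% of the log2 difference that separated P203 replicates 1 and 2 from Dongnong47. DESeq2 on all 6 libraries called 2944 genes (13.3%), 1629 (7.36%) higher and 1315 (5.94%) lower in P203, again including all 321.

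Genes without any count in one genotype stood at the far end of the differences. In 16 genes the Dongnong47 libraries had 0 counts while each P203 library had at least 50, and 14 of these were called. In 9 genes, all called, the P203 libraries had 0 counts while each Dongnong47 library had at least 50. GLYMA10G43160 on chromosome 10, which is unnamed, was listed at 38.2, 36.6 and 28.3 CPM in the P203 libraries and at 0 in all Dongnong47 libraries. Set against a floor of 3 counts over the Dongnong47 libraries, this was at least 437-fold higher in P203 (edgeR adjusted p = 0.00616). The unnamed GLYMA02G39180 on chromosome 2 had 16.3, 17.6 and 17.7 CPM in P203 and 0 in Dongnong47, at least 219-fold higher (adjusted p = 0.00690). Both calls were lost without P203 replicate 2 (edgeR adjusted p = 0.0553 and 0.0607).

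The reverse was seen for GLYMA02G36640, also unnamed and on chromosome 2, with 30.6, 27.5 and 18.7 CPM in Dongnong47 and 0 in all P203 libraries. That is at least 460-fold lower in P203 (adjusted p = 0.00828). GLYMA04G12703 on chromosome 4, likewise unnamed, had 19.6, 15.0 and 31.6 CPM in Dongnong47 and 0 in P203, at least 396-fold lower (adjusted p = 0.0138). The first of these was lost without Dongnong47 replicate 1 or 2 (edgeR adjusted p = 0.0643 and 0.0795), and the second without any 1 Dongnong47 library or P203 replicate 2 (0.0553 to 0.0979). In these 4 genes P203 replicate 3 had the same absence or presence as the other P203 libraries. They were chosen for non-overlapping groups and an extreme log2 FC in these libraries, so this match follows largely from the choice.

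Absence recurred for part of these genes in libraries that were not used to choose them. Of the 16 genes at 0 in Dongnong47, 10 were at 0 again in all 3 Dongnong47 mock libraries of 24 HAI, 9 in those of 96 HAI and 11 in the infested libraries of 48 HAI. In P203, 9, 11 and 11 of the 16 had at least 50 counts in each library of these sets, and both held for 4, 5 and 7 genes. Altogether 6 of the 16 were at 0 in all 12 Dongnong47 libraries. One went the other way: GLYMA08G14270 had 157 to 1135 counts in the Dongnong47 mock libraries of 96 HAI and 54 to 388 in those of P203. Of the 9 genes at 0 in P203, 7, 5 and 7 were at 0 again in the same 3 sets of P203 libraries, and 4 in all 12. In Dongnong47, 5, 6 and 8 of the 9 had at least 50 counts in each library, and both held for 3, 2 and 7. The repeats include GLYMA11G28510 at 24 HAI and GLYMA03G04730 at 96 HAI, which were at 0 in both genotypes, and at 96 HAI GLYMA11G28510 had 72 to 125 counts in P203.

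The same genotype comparison was made in 3 sets of libraries that share none with the 6 above, namely mock leaves at 24 HAI and 96 HAI and infested leaves at 48 HAI. Of the 321 genes, 282, 293 and 297 were tested in these sets, and 249 (88.3%), 238 (81.2%) and 272 (91.6%) differed in the same direction. Over all tested genes the share with the same direction was 63.1%, 53.6% and 61.4%. Fewer genes were called in these sets, 41 (0.182%) in mock leaves at 24 HAI, 99 (0.428%) in mock leaves at 96 HAI and 129 (0.577%) in infested leaves at 48 HAI. Higher in P203 were 22 (0.0979%), 53 (0.229%) and 62 (0.277%) of these, and lower were 19 (0.0846%), 46 (0.199%) and 67 (0.299%). Of the 321 genes, 37 (11.5%), 61 (19.0%) and 94 (29.3%) were called there too, which is 90.2%, 61.6% and 72.9% of the calls of each set, and none was called in the opposite direction. Only 23 genes were called in all 4 sets, 16 higher and 7 lower in P203, and no TF gene was among them. A further 5292 genes were called at 48 HAI only without P203 replicate 3. Of those tested in the 3 other sets, 76.3%, 55.6% and 76.2% differed in the same direction. Of the 5292, just 2 (0.0378%), 25 (0.472%) and 16 (0.302%) were called there.

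**Figure D2:**
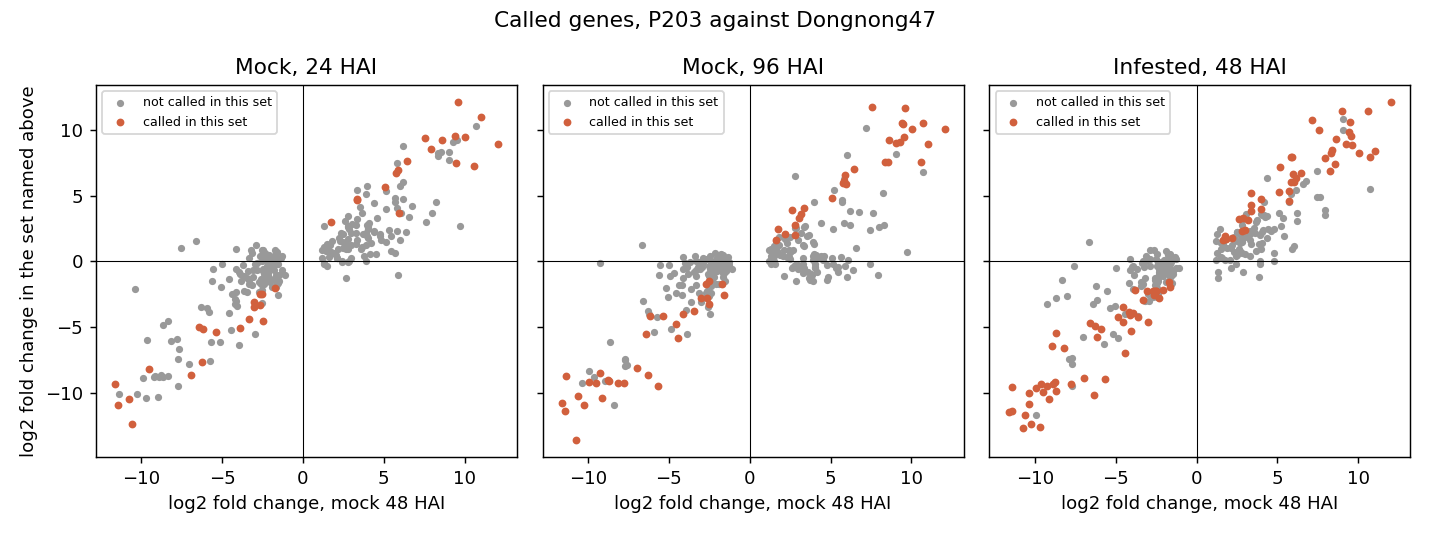
Log2 FC of P203 against Dongnong47 for the called genes of mock leaves at 48 HAI (x axis) and in each of the 3 other sets (y axis), 1 point per gene, with genes called in the other set in orange. Most points lie in the quadrants of equal sign, 88.3%, 81.2% and 91.6% of those tested, and points with a small log2 FC on the x axis spread around 0 on the y axis.

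Whether the genotype difference itself changed with aphids or time was tested as an interaction over 12 libraries. With edgeR, no gene of 23685 (0.0%) passed for infested against mock leaves at 48 HAI, where 2704 had an unadjusted p under 0.05 and DESeq2 called 440 (1.86%). No gene of 23995 (0.0%) passed for 48 against 24 HAI in mock leaves, where 1836 had an unadjusted p under 0.05 and DESeq2 called 98 (0.408%). Without P203 mock replicate 3 of 48 HAI the second test called 3 genes.

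Of 573 tested genes in the lists of JA, SA, callose synthase, catalase and TF genes that the study drew up, 12 were called, against 1.45% of all tested genes. All 12 were in the TF list, which holds 522 of the 573 and whose members the study picked from the same series. The other lists are too short to be set apart from all tested genes by their lack of calls. Of 522 TF genes, 7 were called higher and 5 lower in P203, against 0.677% and 0.772% of all tested genes. The median log2 FC of the TF list was 0.29. Most of these calls depended on each library other than P203 replicate 3. The count of called TF genes was 1 without each of the Dongnong47 libraries, 3 without P203 replicate 1 and 0 without P203 replicate 2. Without P203 replicate 3, 182 of 559 TF genes were called higher and 79 lower, beside 12% and 12.5% of all genes.

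Genes of the WRKY family, DNA-binding proteins best known for defense and senescence, gave 4 of the 7 TF genes that were higher in P203. GLYMA04G40130 on chromosome 4 had 8.66, 7.75 and 3.09 CPM in Dongnong47 and 42.5, 76.0 and 38.7 CPM in P203. All 3 P203 libraries were several times above the highest Dongnong47 library, and the log2 FC was 3.0 ± 0.47 (SE, n = 3 per group, edgeR adjusted p = 0.0431). GLYMA03G41750 on chromosome 3 was at 3.37, 3.84 and 3.19 CPM in Dongnong47 and at 20.2, 26.8 and 10.97 CPM in P203 (log2 FC 2.47 ± 0.37, edgeR adjusted p = 0.0407). P203 replicate 3 was the lowest of the P203 libraries here, yet did not reach the Dongnong47 range. The calls of both genes were lost when any 1 library other than P203 replicate 3 was left out (edgeR adjusted p = 0.0950 to 0.182 and 0.103 to 0.180). Neither gene was called in mock leaves at 24 HAI, mock leaves at 96 HAI or infested leaves at 48 HAI. In these sets the log2 FC was 2.15, -0.28 and 1.83 for GLYMA04G40130 and 1.05, 0.20 and 2.25 for GLYMA03G41750.

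GLYMA01G39600 on chromosome 1 was at 16.2, 15.7 and 12.4 CPM in Dongnong47 and at 84.9, 61.2 and 39.2 CPM in P203 (log2 FC 2.06 ± 0.32, edgeR adjusted p = 0.0424). GLYMA05G20710 on chromosome 5 differed least, with 27.5, 24.1 and 20.8 CPM in Dongnong47 and 60.2, 67.6 and 49.3 CPM in P203 (log2 FC 1.29 ± 0.21, edgeR adjusted p = 0.0464). In both genes the groups did not overlap and P203 replicate 3 was again the lowest P203 library. Their calls too were lost without any 1 of the other 5 libraries (edgeR adjusted p = 0.0905 to 0.187 and 0.121 to 0.188). In infested leaves at 48 HAI, GLYMA05G20710 was at 75.2, 68.5 and 46.5 CPM in Dongnong47 and at 45.6, 170.1 and 79.1 CPM in P203, so that the groups overlapped there (log2 FC 0.63, edgeR adjusted p = 0.67). The log2 FC of GLYMA01G39600 was 0.10 in the same set, 0.50 in mock leaves at 24 HAI and 0.44 at 96 HAI, without a call.

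The other WRKY genes leaned the same way. Of 50 tested, 46 had a positive log2 FC, with a median of 2.43, whereas the median of all tested genes was 0.0094. In 32 WRKY genes the 3 P203 libraries were above all Dongnong47 libraries, as in 14.6% of all tested genes, and in none were they below. P203 replicates 1 and 2 were above all Dongnong47 libraries in 43 of the 50, as in 29.3% of all tested genes. Leaving out P203 replicate 3, 43 of 54 were called higher, beside 12% of all genes, none was called lower and the median was 2.86. DESeq2 called 38 of the 50 higher, beside 7.36% of all genes. Under total counts the median was 2.94, beside 0.48 for all genes.

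GLYMA09G06980 (GmWRKY11), which the study assayed by qPCR, was at 12.99, 14.9 and 7.58 CPM in Dongnong47 and at 49.4, 40.1 and 23.9 CPM in P203. The groups did not overlap, but the log2 FC of 1.67 ± 0.37 missed the threshold (edgeR adjusted p = 0.0746). It was called without P203 replicate 3 (log2 FC 1.92, adjusted p = 0.00875).

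Another 3 TF genes were higher in P203. GLYMA10G32410 on chromosome 10 encodes GmMYB29A2, an R2R3-MYB protein known in soybean as an activator of the phytoalexin glyceollin. It was at 0.137, 0.0738 and 0.299 CPM in Dongnong47 and at 3.10, 11.2 and 3.88 CPM in P203 (log2 FC 5.15 ± 0.80, edgeR adjusted p = 0.0424). P203 replicates 1 and 3 were alike here and replicate 2 was highest. In each of the 3 other sets the groups of GLYMA10G32410 overlapped. Mock leaves at 96 HAI had 0.281, 22.1 and 2.28 CPM in Dongnong47 and 12.8, 7.80 and 1.27 CPM in P203. GLYMA11G18401 on chromosome 11, a gene of the E2F/DP family that governs entry into DNA replication, was at 2.41, 1.92 and 0.897 CPM in Dongnong47 and at 15.8, 16.7 and 10.02 CPM in P203 (log2 FC 3.01 ± 0.43, edgeR adjusted p = 0.0371). Without any 1 library other than P203 replicate 3, neither gene was called (edgeR adjusted p = 0.0676 to 0.188 and 0.101 to 0.178).

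GLYMA11G18401 also had non-overlapping groups in each of the 3 other sets. It was at 1.75 to 5.45 CPM in Dongnong47 and 7.33 to 10.4 CPM in P203 in mock leaves at 24 HAI, and at 3.04 to 3.99 against 10.3 to 12.4 CPM at 96 HAI. In infested leaves at 48 HAI it was at 2.32 to 3.25 CPM against 12.2 to 16.1 CPM and was called (log2 FC 2.37, edgeR adjusted p = 0.0280). The seventh gene, GLYMA04G02980 of the MIKC group of MADS-box genes, known mainly from flower development, had 0 counts in Dongnong47 and 1.86, 3.54 and 1.86 CPM in P203, and its call was lost without any 1 of the same 5 libraries (edgeR adjusted p = 0.119 to 0.175). This gene and 2 of the lower ones below had a mean under 5 CPM in the higher group and were named after their values were seen.

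Among the 5 TF genes lower in P203, the largest difference was that of GLYMA12G10790 on chromosome 12, a MYB-related gene. It was at 13.1, 16.2 and 49.5 CPM in Dongnong47 and between 0.0544 and 0.0564 CPM in every P203 library, about a single count in each (log2 FC -8.68 ± 0.81, edgeR adjusted p = 0.0102). It was called without each library but P203 replicate 2 (adjusted p = 0.0710). In mock leaves at 24 HAI both genotypes were low, with 0.0672 to 0.308 CPM in Dongnong47 and 0 to 0.0667 CPM in P203. The high level was thus seen in Dongnong47 at 48 HAI, where infested leaves had 2.097, 2.53 and 3.16 CPM.

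GLYMA13G05480 on chromosome 13, a Dof zinc finger gene of the C2C2 class, was at 14.02, 17.4 and 19.0 CPM in Dongnong47 and at 0.225, 0.708 and 0.563 CPM in P203 (log2 FC -5.05 ± 0.45, edgeR adjusted p = 0.00909). Its call was lost without any 1 Dongnong47 library or P203 replicate 2 (adjusted p = 0.0536 to 0.0773). Dof proteins are plant-specific regulators of light, carbon and flowering genes. In each of the other sets its groups did not overlap either, with P203 lower, but the log2 FC of -1.98, -2.70 and -3.41 was not called there. GLYMA04G37690 on chromosome 4, a basic helix-loop-helix gene, was at 56.3, 71.9 and 86.1 CPM in Dongnong47 and at 23.4, 17.1 and 24.8 CPM in P203 (log2 FC -1.72 ± 0.25, edgeR adjusted p = 0.0383). Its log2 FC was positive, without a call, in all 3 other sets (0.88, 0.056 and 0.15). Scaled by total counts it was no longer called, nor without any 1 library other than P203 replicate 3 (edgeR adjusted p = 0.101 to 0.175).

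Both remaining genes were weakly expressed. GLYMA02G36090 of the B3 superfamily was at 2.61, 2.29 and 3.39 CPM in Dongnong47 and at 0.113, 0.0544 and 0.281 CPM in P203 (log2 FC -4.14 ± 0.65, edgeR adjusted p = 0.0431). GLYMA08G17990 of the LBD family, which shapes organ boundaries, was at 1.44, 2.22 and 2.79 CPM in Dongnong47, at 0.0564 CPM in P203 replicate 1 and at 0 in P203 replicates 2 and 3. Both calls were lost without any 1 library other than P203 replicate 3 (edgeR adjusted p = 0.125 to 0.181 and 0.0950 to 0.177).

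**Figure D3:**
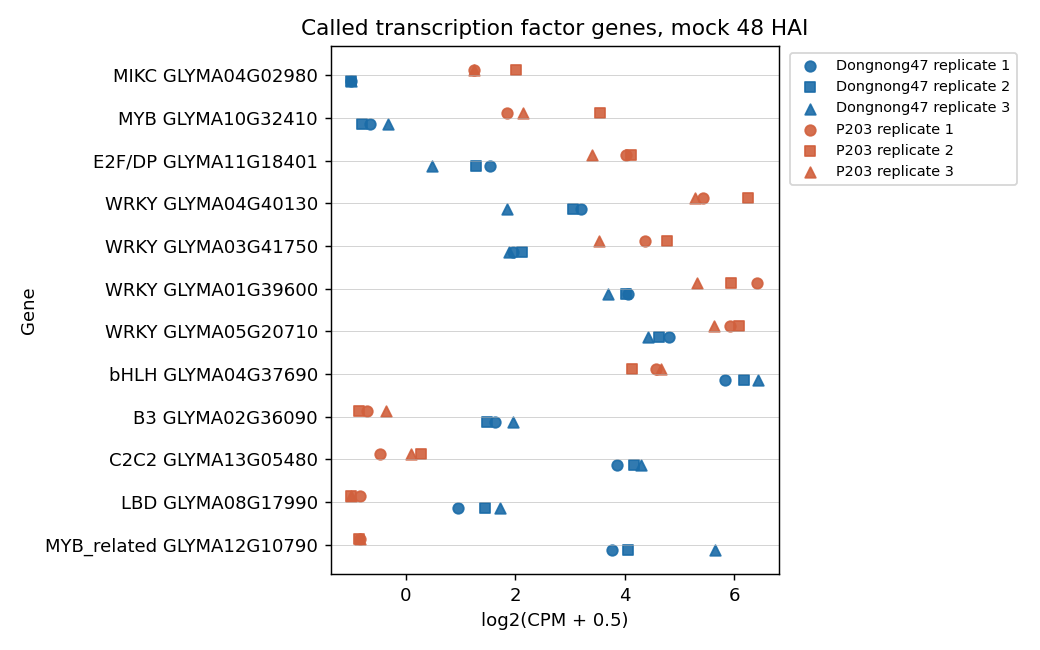
Expression of the 12 called TF genes as log2(CPM + 0.5) (x axis), 1 row per gene and 1 point per library, Dongnong47 in blue and P203 in orange. In every row the orange and blue points do not overlap, and P203 replicate 3 (triangle) lies with the other P203 libraries. The genes were called from these same libraries, which favours such a separation.

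TF families differed in how many members lay above 0, without further calls. Of 58 AP2/ERF genes, which act in ethylene and stress signaling, none was called and the median log2 FC was 0.92. Without P203 replicate 3, 28 of 64 were called higher and 10 lower, beside 12% and 12.5% of all genes. Of 34 MYB genes, with the 1 call given above, 30 had a positive log2 FC and the median was 0.57. In that family 18 of 43 were called higher and 0 lower without P203 replicate 3. Of 27 NAC genes, a family active in stress and senescence, none was called and the median was 1.08, while 16 of 31 were called higher without P203 replicate 3, beside 12% of all genes. B-box genes, zinc finger proteins of light and flowering control that include the CONSTANS-like genes, had a median of -0.93 over 20 tested genes with none called. In 13 of the 20, the P203 libraries were below all Dongnong47 libraries, against 16.2% of all tested genes. Under total counts the B-box median was -0.41. It was 0.033 in mock leaves at 24 HAI, -0.12 in mock leaves at 96 HAI and 0.10 in infested leaves at 48 HAI, so the lower level was not seen in every set. The 34 MYB-related genes had a median of -0.53, which was -0.022 under total counts. The 46 C2C2 genes had a median of -0.44, which changed sign to 0.018 under total counts.

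GLYMA03G42260, an LHY/CCA1-like gene of the MYB-related group whose Arabidopsis relatives are morning genes of the circadian clock, was picked after its values were seen. It was at 413.3, 641.4 and 907.4 CPM in Dongnong47 and at 120.5, 267.3 and 153.4 CPM in P203. The groups did not overlap, but the difference missed the threshold (log2 FC -1.86 ± 0.45, edgeR adjusted p = 0.0881), also without P203 replicate 3 (adjusted p = 0.0504). P203 replicate 3 lay between the other P203 libraries. In mock leaves at 24 HAI the log2 FC of GLYMA03G42260 was 0.39, in mock leaves at 96 HAI -0.35 and in infested leaves at 48 HAI -0.16, without a call.

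**Figure D4:**
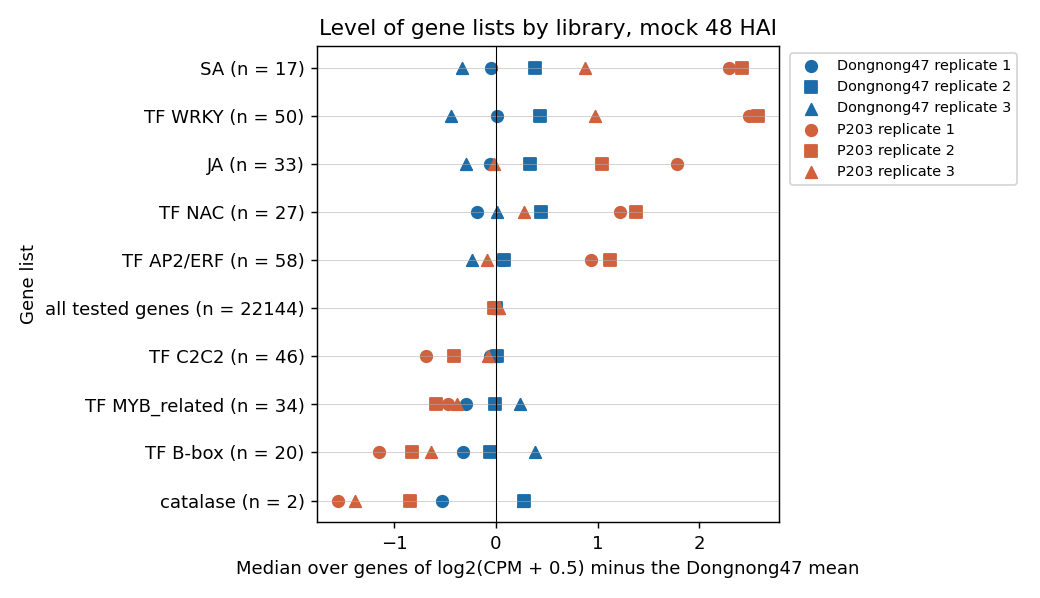
Median over the tested genes of each list of log2(CPM + 0.5) minus the gene's mean in the Dongnong47 libraries (x axis), 1 row per list and 1 point per library. P203 replicates 1 and 2 lie at 2.29 to 2.58 for SA and WRKY genes, where P203 replicate 3 lies at 0.87 and 0.98, and for JA genes P203 replicate 3 lies at -0.024, among the Dongnong47 libraries.

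No JA gene passed the test with all 6 libraries, although 1 passed without the filter on low counts (1.33% of all genes), 2 with the replicate number as a block (1.53%) and 5 in a single fit of 18 mock libraries (4.63%). Of 33 tested JA genes, which the study also selected from this series, 26 had a positive log2 FC, the median was 1.18 and the lowest adjusted p was 0.0529. P203 replicates 1 and 2 were above all Dongnong47 libraries in 21 of the 33, as in 29.3% of all tested genes. P203 replicate 3 joined them in 9 of the 21, beside 49.6% among all genes with that order. Without P203 replicate 3, 14 of 34 were called higher and 2 lower, beside 12% and 12.5% of all genes, and the median was 1.54. DESeq2 called 11 higher and 2 lower with all libraries, beside 7.36% and 5.94% of all genes. Summed over the JA genes, P203 replicate 1 reached 11656 CPM, P203 replicates 2 and 3 were at 4874 and 3388 CPM, and Dongnong47 was at 2184 to 4715 CPM, so that a single library exceeded the Dongnong47 range by far. In a bulk leaf sample, fewer cells of a type and less RNA per cell cannot be told apart.

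The JA and SA genes described next, other than GmPAL1 and GmJAZ12, which the study assayed by qPCR, were picked after their values were seen. The highest log2 FC of the JA list was that of GLYMA02G26160 (LOX2), a lipoxygenase of the first step of JA synthesis. It was at 0.756, 2.29 and 0.299 CPM in Dongnong47 and at 191.2, 167.3 and 15.4 CPM in P203. P203 replicate 3 was more than 10 times below the other P203 libraries, yet above every Dongnong47 library (log2 FC 6.76 ± 1.21, edgeR adjusted p = 0.0529). It was called without P203 replicate 3 (log2 FC 7.28, adjusted p = 0.00299). Other LOX2 genes behaved differently. GLYMA12G05840 was lower in each P203 library than in each Dongnong47 library (log2 FC -0.81, edgeR adjusted p = 0.17, and 0.12 without P203 replicate 3). GLYMA11G13880 was higher in each P203 library, with P203 replicate 3 the highest (log2 FC 2.16, edgeR adjusted p = 0.0785). It was called without that library (log2 FC 1.51, edgeR adjusted p = 0.0153).

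The most abundant JA gene was GLYMA13G42330 (LOX1), with 1009, 1569 and 220.3 CPM in Dongnong47 and 4736, 1511 and 730.1 CPM in P203. Its groups overlapped, and only P203 replicate 1 was above all Dongnong47 libraries (log2 FC 1.32 ± 0.93, edgeR adjusted p = 0.42, and 0.18 without P203 replicate 3). GLYMA03G07570 (FAD8), a chloroplast desaturase that supplies the fatty acid precursor of JA, went the other way, with 407.7, 394.1 and 504.2 CPM in Dongnong47 and 107.5, 123.2 and 224.8 CPM in P203. Its groups did not overlap, while its log2 FC of -1.52 ± 0.36 missed the threshold (edgeR adjusted p = 0.0847) and was called at -1.90 without P203 replicate 3 (adjusted p = 0.00860). Another FAD8 gene, GLYMA07G18350, was at 5.02, 7.16 and 3.09 CPM in Dongnong47 and at 73.8, 21.1 and 5.57 CPM in P203. Its groups overlapped (log2 FC 2.71 ± 0.90, edgeR adjusted p = 0.14), and it was called higher without P203 replicate 3 (log2 FC 3.21, adjusted p = 0.0114). Soybean lipoxygenase genes have close copies, and how reads were divided among them is not given in the sources used here.

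JAZ genes encode the repressors that JA removes and whose transcripts JA itself induces. GLYMA13G17180 (JAZ1) was at 3.85, 14.5 and 4.98 CPM in Dongnong47 and at 160.2, 112.7 and 4.05 CPM in P203. GLYMA01G41290 (JAZ2) was at 2.41, 12.7 and 4.89 CPM in Dongnong47 and at 178.3, 121.8 and 0.563 CPM in P203. In both genes P203 replicates 1 and 2 were far above Dongnong47, and P203 replicate 3 was within or below its range. Their log2 FC of 3.56 ± 1.22 and 3.91 ± 1.60 missed the threshold (edgeR adjusted p = 0.15 and 0.20) and was 4.13 and 4.50 without P203 replicate 3 (adjusted p = 0.00652 and 0.00705). GLYMA09G09100 (GmJAZ12) was at 85.8, 115.9 and 143.1 CPM in Dongnong47 and at 107.1, 134.1 and 69.6 CPM in P203, with overlapping groups (log2 FC -0.15 ± 0.32, edgeR adjusted p = 0.81, and 0.85 without P203 replicate 3). Of 6 tested JAZ genes, 4 had a positive log2 FC. The P203 libraries were above all Dongnong47 libraries in 0 of the 6 and below in 1, against 14.6% and 16.2% of all tested genes. The 1 below was GLYMA08G04770 (JAZ3), at 92.5, 139.5 and 163.5 CPM in Dongnong47 and at 72.3, 82.7 and 54.7 CPM in P203. Its log2 FC of -0.92 ± 0.29 missed the threshold (edgeR adjusted p = 0.13, and 0.10 without P203 replicate 3).

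None of the 17 SA genes was called, although 13 had an unadjusted p under 0.05 and 14 a positive log2 FC. Their median log2 FC was 1.96, and 4 of the 17 are WRKY genes that the TF list holds as well. P203 libraries were above all Dongnong47 libraries in 11 of the 17, against 14.6% of all tested genes, and below in 1. Without P203 replicate 3, 12 were called higher and 2 lower, beside 12% and 12.5% of all genes. DESeq2 with all libraries called 11 higher and 1 lower, beside 7.36% and 5.94%. With the block 3 SA genes were called, beside 1.53% of all genes, and 4 in the single fit, beside 4.63%.

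Phenylalanine ammonia-lyase (PAL) opens the phenylpropanoid route to SA and to isoflavonoids. GLYMA10G06600 (GmPAL1) was at 377.1, 723.9 and 844.4 CPM in Dongnong47 and at 1203, 2237 and 374.5 CPM in P203. P203 replicate 3 was below every Dongnong47 library, and the groups overlapped (log2 FC 0.97 ± 0.68, edgeR adjusted p = 0.42, and 0.0789 without P203 replicate 3). GLYMA13G20800 (PAL2) was at 102.3, 124.2 and 102.4 CPM in Dongnong47 and at 487.9, 498.6 and 76.8 CPM in P203, where P203 replicate 3 was again below every Dongnong47 library (log2 FC 1.69 ± 0.66, edgeR adjusted p = 0.18). GLYMA03G33880 (PAL1), with 7.56, 17.1 and 3.19 CPM in Dongnong47 and 189.3, 83.5 and 19.7 CPM in P203, did not overlap (log2 FC 3.38 ± 0.94, edgeR adjusted p = 0.11). GLYMA02G47940, another PAL2 gene, was at 0.481, 0.812 and 0.0997 CPM in Dongnong47 and at 7.83, 9.64 and 2.08 CPM in P203. Its groups did not overlap (log2 FC 3.75 ± 0.83, edgeR adjusted p = 0.0756). Without P203 replicate 3, GLYMA13G20800, GLYMA03G33880 and GLYMA02G47940 were called (log2 FC 2.18, 3.87 and 4.16, edgeR adjusted p = 0.00486, 0.0114 and 0.00749).

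GLYMA01G25690 (ICS1) encodes isochorismate synthase, the entry to the other route to SA. It was at 59.2, 24.0 and 74.9 CPM in Dongnong47 and at 3.72, 5.28 and 71.1 CPM in P203. P203 replicates 1 and 2 were thus below all Dongnong47 libraries, with P203 replicate 3 at the upper end of the Dongnong47 range (log2 FC -0.98 ± 1.12, edgeR adjusted p = 0.63). It was called lower once P203 replicate 3 was left out (log2 FC -3.53, adjusted p = 0.00814).

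The groups did not overlap in the following 3 SA genes, among others. GLYMA02G45260 (NPR1), the SA coactivator, was at 11.8, 16.98 and 10.7 CPM in Dongnong47 and at 77.1, 71.2 and 23.1 CPM in P203. GLYMA08G00420 (PAD4), a lipase-like partner of EDS1 in defense, was at 5.22, 8.42 and 5.98 CPM in Dongnong47 and at 45.4, 47.1 and 9.96 CPM in P203. GLYMA02G39870 (WRKY33), a regulator of phytoalexin genes in Arabidopsis, was at 25.6, 49.6 and 25.0 CPM in Dongnong47 and at 236.5, 278.4 and 58.4 CPM in P203. In all 3 genes P203 replicate 3 was the lowest P203 library and still above Dongnong47. Their log2 FC was 2.12 ± 0.48, 2.38 ± 0.59 and 2.51 ± 0.62, and none passed (edgeR adjusted p = 0.0766, 0.0918 and 0.0914). Without P203 replicate 3 each was called (log2 FC 2.50, 2.83 and 2.96, adjusted p = 0.00367, 0.00299 and 0.00527). Among other SA signaling genes, GLYMA06G19890 and GLYMA06G19920 (EDS1) and GLYMA04G38691 (PAD4) were also higher in each P203 library than in each Dongnong47 library. Their log2 FC was 2.51, 1.96 and 1.43 (edgeR adjusted p = 0.12, 0.11 and 0.13). All were called without P203 replicate 3 (log2 FC 2.77, 2.24 and 1.68, edgeR adjusted p = 0.0298, 0.0201 and 0.0297). By contrast, GLYMA03G28320 (TGA2) had overlapping groups, with P203 at 56.0, 54.9 and 27.8 CPM. GLYMA11G11970 (EDS5) was lower in each P203 library (log2 FC -1.03, edgeR adjusted p = 0.0991, and 0.0181 without P203 replicate 3).

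**Figure D5:**
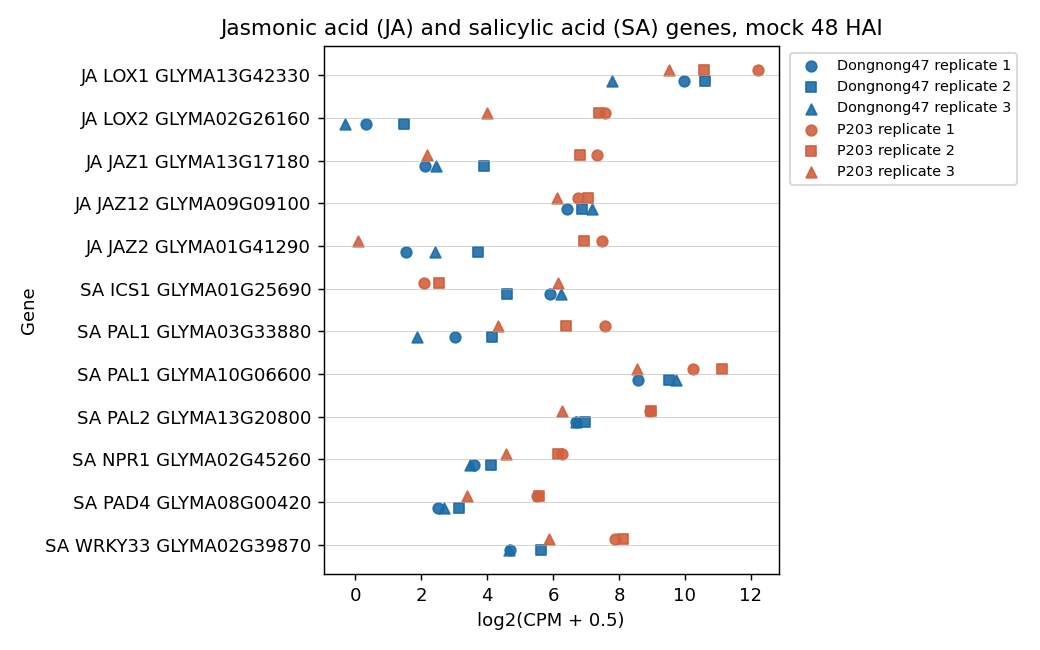
Expression of JA and SA genes as log2(CPM + 0.5) (x axis), 1 row per gene and 1 point per library, Dongnong47 in blue and P203 in orange. P203 replicate 3 (orange triangle) lies at or near the blue points for JAZ1, JAZ2, PAL2 and ICS1, while P203 replicates 1 and 2 lie close together away from them.

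In the other sets the JA and SA lists had no called gene, and neither had the WRKY genes. Median log2 FC of the JA genes was 0.22 in mock leaves at 24 HAI, -0.13 in mock leaves at 96 HAI and 0.56 in infested leaves at 48 HAI. Medians of the SA genes were 0.81, -0.085 and 1.59, and those of the WRKY genes were 1.0, 0.073 and 1.54. The median of each of these lists was thus highest in mock leaves at 48 HAI. Gene by gene, the difference from mock leaves at 24 HAI and from infested leaves at 48 HAI passed the interaction test above for no gene in the main edgeR fit. DESeq2 called 98 and 440 genes there, and edgeR with all loci fitted called 17 and 2. The difference from mock leaves at 96 HAI was not tested.

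Callose synthases seal sieve plates, and catalases break down hydrogen peroxide. Of 4 tested callose synthase genes, none was called and the median log2 FC was 0.00078, with summed levels of 141.8 to 155.6 CPM in Dongnong47 and 138.3 to 153.3 CPM in P203. When P203 replicate 3 was left out, 2 of 5 were called higher, beside 12% of all genes. Both tested catalase genes were lower in each P203 library than in each Dongnong47 library, as were 16.2% of all tested genes. GLYMA04G01920 was at 1435, 2848 and 2659 CPM in Dongnong47 and at 742.7, 1306 and 798.6 CPM in P203 (log2 FC -1.29 ± 0.47, edgeR adjusted p = 0.17). GLYMA06G02040 was at 1389, 2141 and 2273 CPM in Dongnong47 and at 653.8, 994.5 and 762.0 CPM in P203 (log2 FC -1.27 ± 0.40, edgeR adjusted p = 0.13). DESeq2 called both, beside 5.94% of all genes called lower, and neither was called without P203 replicate 3 (edgeR adjusted p = 0.16 and 0.10). The lower level was not seen in every set. Median log2 FC of the catalase genes was 0.41 in mock leaves at 24 HAI, -0.32 in mock leaves at 96 HAI and 0.48 in infested leaves at 48 HAI, without a call.

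Called genes lay on each of the 13 chromosomes, from 0.851% of tested genes on chromosome 5 to 2.06% on chromosome 3. In identifier order, 24 of the 321 genes stood next to another gene called in the same direction, in 9 pairs and 2 runs of 3. One run of 3 was on chromosome 8 and the other on chromosome 9, both higher in P203. Positions are those that the identifiers carry, since no genome of the files' annotation was used.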

How the data were processed

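The authors took RNA of 3 independent samples per group, sequenced it on an Illumina platform, trimmed the reads, mapped them with HISAT2 to Glycine_max_v2.1, and counted reads per gene with StringTie. The submitters' processing notes name CASAVA 1.8 and Bowtie. Each deposited table holds estimated counts by gene without normalization, of which 22.5% to 23.2% per library are not whole, and was rounded here. An identifier absent from a library was taken as 0. None of the identifiers matched the RefSeq gene table (0), so names are those of the study's tables.

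The 6 libraries were fitted with edgeR 4.0.16 in R 4.3.3 (TMM normalization, filterByExpr at its minimum count of 10 and minimum total of 15, and the quasi-likelihood test, with p adjusted over all tested genes after Benjamini and Hochberg). A call needed an adjusted p below 0.05 and a log2 FC of 1 or more in either direction, as in the study. CPM are scaled by TMM. The standard error (SE) was derived from the log2 FC and its test. The other 3 sets of 6 libraries were fitted alike, and interactions over 12 libraries. On simulated counts of 21873 genes, the pipeline recovered 9% of 100 changes of 2-fold and 99% of 100 changes of 8-fold, with 4 false calls. Small changes are thus mostly missed at these thresholds. The spread of the simulated counts was set by a formula and not estimated from these libraries. Libraries differed by far more than counting noise (chi-square per gene of at least 25.5 for every pair), so that precision rests on 3 samples per group.

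The lists and the members described were chosen with earlier results of these data known. Named genes were called genes of the JA, SA, callose synthase and catalase lists, the 4 genes of chromosomes 1 to 13 assayed by qPCR, called TF genes with a mean of at least 5 CPM in the higher group and non-overlapping groups (up to 8 in each direction, and all called B-box and LHY/CCA1-like genes), and the unnamed genes with the 2 largest and 2 smallest log2 FC. Others are marked as picked after their values were seen. Labels of genotype were compared with 80 genes whose mock libraries of 24 HAI differed by over 2 on the log2 scale (pseudocount 0.5 CPM, at least 2 CPM). Alternatives were DESeq2 1.42.0, RLE normalization, no filter, all loci, a single fit of 18 mock libraries, the replicate number as a block, adjusted p alone and each library left out. Figures used Python 3.11.15 with matplotlib 3.10.9.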

Additional observations from a re-analysis of the deposited data

How the results depend on the processing

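The count of called genes, 321 here, was 329 with RLE normalization, 394 without a filter, 420 with all loci fitted, 2944 with DESeq2 and 1150 in a single fit of the 18 mock libraries, and ran from 12 to 5613 when each library was left out in turn. Scaling by total counts and the block without P203 replicate 3 were chosen after seeing the data. The share of calls higher in P203 was 63.8% under total counts. Same-numbered libraries of the genotypes did not deviate together (r of -0.092, 0.356 and 0.062), and nothing in the labels ties them to 1 plant, batch or day. With the replicate block 338 genes were called, and 4878 with the block and without P203 replicate 3. The interaction with infestation gave 0 genes with edgeR, also with the block and with any library left out (0 to 0), but 440 with DESeq2 and 2 with all loci. The interaction with time gave 0 genes, also with the block, and 98 with DESeq2, 17 with all loci and 0 to 3 with a library left out. With a minimum of 20 counts, 24 genes were at 0 in Dongnong47 and 17 in P203.

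Among the 28 named genes and their alternatives, direction changed for GmJAZ12 alone, whose log2 FC was 0.38 under total counts, ran from -0.36 to 0.084 with a library left out (0.025 without Dongnong47 replicate 3, 0.084 without P203 replicate 3), and 0.27 with the block and without P203 replicate 3. Of the 13 calls of single genes named by rule, 6 were lost with the block and 4 in the single fit of 18 libraries. Leaving out a library cost 10, 10 and 9 of them for Dongnong47 replicates 1, 2 and 3, 7 and 12 for P203 replicates 1 and 2, and 0 for P203 replicate 3. Precision was limited by the 3 libraries per genotype, 1 of which stood apart. The cause of the differences between settings was not tested.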

Other observations

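Libraries of the other sets also differed within a genotype at the genes that set P203 replicate 3 apart at 48 HAI. In P203 mock leaves at 24 HAI, GLYMA13G17180 (JAZ1) was at 54.4, 4.73 and 7.73 CPM and GLYMA01G25690 (ICS1) at 3.15, 57.3 and 30.7 CPM in replicates 1, 2 and 3. In infested P203 leaves at 48 HAI, JAZ1 was at 4.45, 188.5 and 8.86 CPM and ICS1 at 67.3, 3.34 and 59.3 CPM. The library highest in JAZ1 was the lowest in ICS1 in these groups and in 7 of all 8 groups of 3 libraries. The exception was infested Dongnong47 leaves at 48 HAI, with JAZ1 at 8.03, 10.3 and 3.63 CPM and ICS1 at 42.2, 43.0 and 25.7 CPM, so that 1 library was the highest in both. Dongnong47 mock leaves at 96 HAI had JAZ1 at 7.47, 97.0 and 61.8 CPM and ICS1 at 30.0, 5.51 and 24.5 CPM. These are values of single libraries, seen after the data were examined, and no test was made of them. Within groups, r of log2(CPM + 0.5) between replicates ran down to 0.733 in P203 mock leaves at 24 HAI and to 0.751 at 48 HAI, and P203 leaves had a lower minimum than Dongnong47 leaves in each of the 4 sets.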
